A study of Mus musculus with 4 samples.

Results

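Ucp2 and 9 genes of fatty acid oxidation and pyruvate use were followed across the immune cells of mouse inguinal fat at 30 °C and after acute cold. The 10 genes are Ucp2, Cpt1a, Slc25a20, Acadvl, Acadl, Acadm, Hadha, Hadhb, Pdk1 and Pdk4, out of 31053 genes in the deposited tables, and all 10 were found by symbol. They were chosen by their values in these same libraries, on levels by cell type and on differences between 4C and 30C. Those levels and differences are therefore a description, and the adjusted p-values, which run over all genes tested, place a gene within the whole table and are not independent support.

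Single-cell RNA sequencing (10x 3′, version 3) was run on ChAT-eGFP+ cells sorted from the stromal vascular cells of inguinal fat. There were 4 libraries, 2 from mice kept at 30C and 2 from mice taken to 4C, and each pooled 4 male ChATBAC-eGFP mice. All mice carried the transgene, in which the Chat promoter drives eGFP from a bacterial artificial chromosome. All were moved to 30 °C at 5 weeks of age for 3 weeks and were about 8 weeks old at harvest. The 30C group then stayed at 30 °C for a further 4 h and the 4C group spent 4 h at 4 °C. According to the methods the 4C mice also had 24 h at room temperature before the cold, so that step and the cold cannot be told apart. A library is a pool, so n = 2 pools per temperature, and the spread between mice within a pool was not measured. With 2 libraries per temperature, groups that do not overlap are easily reached. The share of all genes whose groups do not overlap was not counted, so such a split is a description only.

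Filtering left 5191 and 5388 cells in the 30C libraries and 5329 and 5345 in the 4C libraries, with 7520 to 8068 UMIs (unique molecular identifiers, each standing for a captured mRNA) per cell in the median. Between 5 and 14 cell barcodes were shared by any 2 libraries. Cells were gated by fixed markers, none of which is among the 10 genes, into 9018 B cells, 6522 alpha-beta T cells, 560 gamma-delta T cells, 397 group 2 innate lymphoid cells (ILC2), 971 macrophages and 290 dendritic cells, the 6 types tested. Plasma cells (605) and stromal cells (114) also held at least 20 cells in every library, and their levels are given without a test. Chat itself, the gene behind the sort, was read in all 6 types, at 4.88 to 25.3 CPM (UMIs of the gene out of all UMIs of the type in a library, scaled to a common total) in macrophages and at 28.4 to 126 CPM in the others, and it was at 0 in the stromal cells. Macrophages numbered 168 and 186 at 30C and 453 and 164 at 4C, and gamma-delta T cells 199 and 216 at 30C and 108 and 37 at 4C.

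As background, long-chain fatty acids enter mitochondria as carnitine esters. CPT1A attaches the carnitine at the outer membrane and is the regulated step, and the carrier SLC25A20 brings the ester across the inner membrane. In the matrix, acyl-CoA dehydrogenases (ACADVL for very long, ACADL for long and ACADM for medium chains) and the trifunctional protein, made of HADHA and HADHB, shorten the chain step by step. PDK1 and PDK4 are kinases that switch off pyruvate dehydrogenase and so hold back the use of glucose carbon, while UCP2 is a carrier of the inner membrane that is abundant in immune cells and moves metabolites such as C4 acids and phosphate.

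The stretches just upstream of Ucp2, Cpt1a and Slc25a20, each called in 2 of the tested types, are shown for reference. The stretch shared by Hadha and Hadhb, which were called in no type, is shown too. The part of these stretches in the levels was not tested. Each is given 5′ to 3′ on the plus strand from the RefSeq promoter table (GRCm38.p6), cut to at most 150 bases that lie outside every annotated exon. The stretch of Cpt1a lies inside the GENCODE span of the gene, which starts further upstream. Capitals mark a match to one of the motifs named in the next paragraph.
Ucp2, chr7:100493187-100493336: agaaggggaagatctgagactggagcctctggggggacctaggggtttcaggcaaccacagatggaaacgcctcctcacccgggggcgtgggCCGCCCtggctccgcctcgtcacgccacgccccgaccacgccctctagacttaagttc
Cpt1a, chr19:3323135-3323284: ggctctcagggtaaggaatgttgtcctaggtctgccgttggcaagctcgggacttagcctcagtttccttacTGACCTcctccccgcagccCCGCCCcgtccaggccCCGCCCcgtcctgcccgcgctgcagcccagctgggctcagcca
Slc25a20, chr9:108661938-108662087: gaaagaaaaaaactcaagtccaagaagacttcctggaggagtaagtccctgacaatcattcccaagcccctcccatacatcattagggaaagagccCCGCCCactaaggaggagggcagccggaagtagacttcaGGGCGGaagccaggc
Hadha and Hadhb, chr5:30155163-30155247: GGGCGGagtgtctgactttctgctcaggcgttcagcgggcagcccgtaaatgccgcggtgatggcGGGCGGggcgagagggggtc

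Motifs were searched on both strands in the 250 bases upstream of each RefSeq start. The GC box GGGCGG, held by 32.7% of 32851 mouse promoters, was found in Ucp2, Cpt1a, Slc25a20, Acadl, Pdk1, Hadha and Hadhb. AGGTCA, the hexamer read by nuclear receptors and held by 14.0% of promoters, was found in Cpt1a, Acadm and Acadvl. The direct repeat of that hexamer known as DR1, which contains it and is read by PPAR factors, is held by 0.0335% of promoters and was in none of the 10 genes. GTAAACA (FOXO factors, 3.17% of promoters) and TATAAA (12.4%) were also in none, ACGTG (the HIF core, 16.6%) was in Acadvl, TGTTCT (glucocorticoid receptor, 16.1%) was upstream of the second listed start of Pdk1, and CCAAT (33.8%) was in Cpt1a and Pdk4. A match is a description of these letters only.

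Ucp2 was highest in macrophages, and there it fell with cold. The gene lies on chr7:100493337-100502020 (GRCm38, GENCODE M21, plus strand) and overlaps Dnajb13 on the other strand. In macrophages Ucp2 stood at 2770 and 2724 CPM in 30C replicates 1 and 2 and at 910 and 1146 CPM in 4C replicates 1 and 2. Both 30C libraries were far above both 4C libraries and the groups did not overlap. The fitted log2 fold change was -1.46 ± 0.11 (SE, n = 2 and 2), a 2.76-fold lower level at 4C, with an adjusted p of 2.51e-05 in edgeR's quasi-likelihood test. The difference was larger in the macrophages that carried Mrc1 and Folr2, markers of resident macrophages. Their Ucp2 was 3139 and 2937 CPM at 30C against 833 and 972 CPM at 4C, with a log2 fold change of -1.81 ± 0.10 and an adjusted p of 2.48e-07 when edgeR was fitted on them alone. In the Itgax- or Trem2-positive macrophages, fewer in number, Ucp2 was 1990 CPM in 30C replicate 2 and 1263 and 1528 CPM in the 4C replicates, and 30C replicate 1 held too few of these cells for a value.

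The same pattern was seen cell by cell. With every cell thinned to 3000 UMIs, the median macrophage held 8 Ucp2 UMIs in each 30C library and 2 and 3 in the 4C libraries. This left out 11, 14, 42 and 19 shallower macrophages in the 4 libraries. The median B cell held 1 thinned Ucp2 UMI in all 4 libraries. The share of macrophages with a Ucp2 UMI was 98.7% and 100% at 30C and 87.6% and 93.1% at 4C after thinning, and 100%, 99.5%, 95.8% and 95.7% before it. In stromal cells, the type with the lowest Ucp2, the share was 20% and 8.33% at 30C and 9.09% and 0% at 4C after thinning, and 15.4%, 20.8%, 23.1% and 12.0% before it, at a median depth of 2818 to 11165 UMIs against 8158 to 9748 in macrophages. The stromal shares rest on few cells, 26 and 24 at 30C and 39 and 25 at 4C before thinning. In 30C replicate 2 their median depth of 2818 UMIs was under the 3000 needed, so many were left out there. The macrophage shares stood far above the stromal ones at both temperatures. The summed markers of adipocytes also moved in macrophages, from 44.5 and 45.0 CPM at 30C to 23.4 and 19.9 CPM at 4C, with 6, 5, 6 and 4 of the 7 markers read in the 4 libraries and Ucp1 at 0 in all of them. Other markers in the macrophage sums were apart by temperature too. Lymphatic endothelial markers were at 23.9 and 17.4 CPM against 5.60 and 9.31 CPM, with 2, 2, 4 and 4 of the 5 read. Platelet markers were at 10.8 and 15.2 CPM against 3.31 and 2.66 CPM, mostly from Ppbp (17, 27, 11 and 4 UMIs). T cell markers were at 101 and 59.1 CPM against 46.4 and 34.6 CPM. Those of plasma and stromal cells were also lower at 4C, at 156 and 139 CPM against 105 and 123 CPM and at 30.2 and 21.7 CPM against 20.9 and 19.9 CPM. Dendritic cell markers were the ones higher at 4C, at 17.1 and 19.5 CPM against 33.1 and 28.6 CPM. The part of these markers in the difference was not tested.

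**Figure D1:**
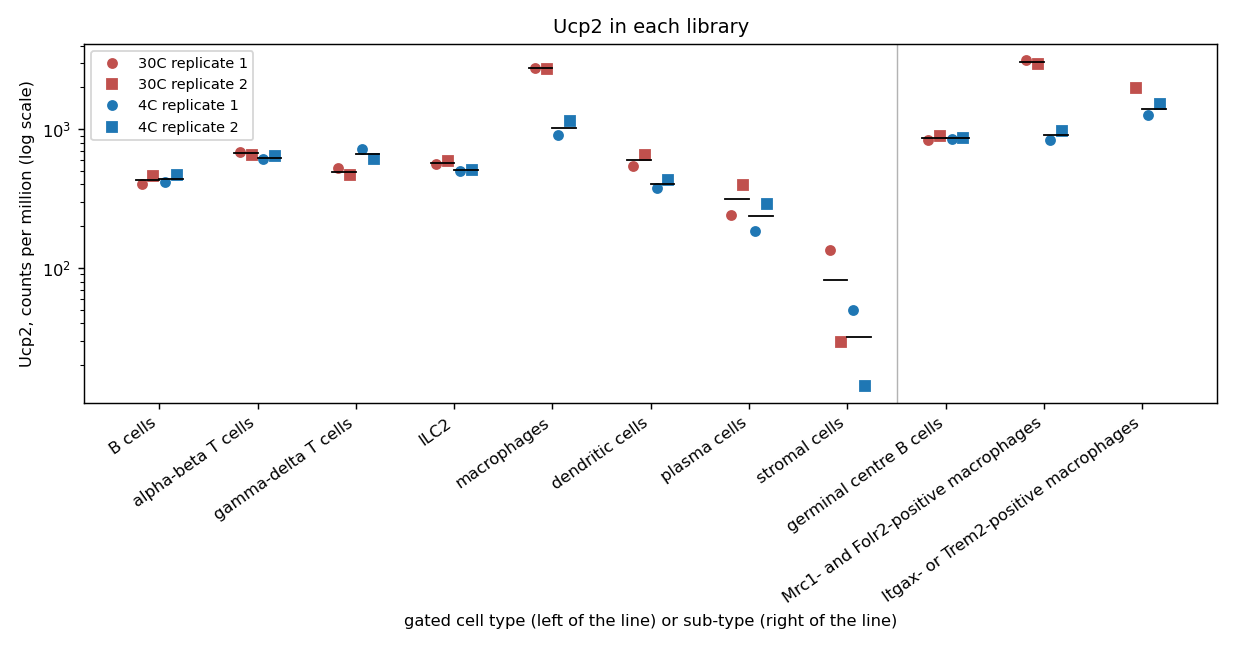
Ucp2 level in CPM (log axis) in each library by gated cell type and, right of the line, by sub-type; red points are the 30C libraries, blue points the 4C libraries, and black bars the mean of each temperature where both libraries have a value, with 1 point per pool of 4 mice. Macrophages at 30C (2770 and 2724 CPM) stand above every other type, and at 4C (910 and 1146 CPM) they are still the highest type but closer to the rest, while the germinal centre B cells keep 832 to 894 CPM in all libraries.

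Ucp2 in dendritic cells was lower as well at 4C. It was 541 and 657 CPM at 30C against 378 and 431 CPM at 4C, with no overlap between temperatures. The log2 fold change was -0.60 ± 0.13 with an edgeR adjusted p of 0.0339. This call was lost without 30C replicate 2 (-0.46, adjusted p = 0.0733) and without 4C replicate 1 (-0.47, adjusted p = 0.110), and also with the stricter and looser gates and without cycling cells. Plasma cell markers in the dendritic sums (97.8 and 104 CPM at 30C, 48.4 and 59.0 CPM at 4C) and mitochondrially encoded genes (28889 and 29710 CPM at 30C, 25809 and 26413 CPM at 4C) were lower at 4C as well, and their part was not tested.

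In lymphocytes Ucp2 did not pass the threshold. B cells held 404 and 463 CPM at 30C against 414 and 466 CPM at 4C, and the groups overlapped, with a log2 fold change of -0.07 ± 0.08. Germinal centre B cells stood above the other B cells in every library, at 832 to 894 CPM against 348 to 394 CPM in Ighd-positive B cells. Alpha-beta T cells held 690 and 651 CPM at 30C against 609 and 643 CPM at 4C, and ILC2 held 564 and 586 CPM at 30C against 500 and 512 CPM at 4C. Their log2 fold changes were -0.16 ± 0.05 (adjusted p = 0.119) and -0.23 ± 0.11 (adjusted p = 0.447), so the 4C libraries were the lower ones in both without passing. Gamma-delta T cells went the other way, with 522 and 469 CPM at 30C against 718 and 609 CPM at 4C. The fitted log2 value was 0.37 ± 0.12, with an adjusted p of 0.116. The value for 4C replicate 2 there rests on 37 cells, and without cycling cells the fitted change was -0.06. In ILC2 the stricter gate turned the value to 0.11.

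At 30C the order of the types by mean Ucp2 was macrophages, alpha-beta T cells, dendritic cells, ILC2, gamma-delta T cells, B cells, plasma cells, lymphatic endothelial cells and stromal cells. The libraries of alpha-beta T cells and dendritic cells overlapped, and so did those of dendritic cells and ILC2, so these neighbours are not ordered beyond their spread. At 4C the order was macrophages, gamma-delta T cells, alpha-beta T cells, ILC2, B cells, dendritic cells, plasma cells and stromal cells, with too few lymphatic endothelial cells for a value. The libraries of gamma-delta and alpha-beta T cells overlapped there, as did those of B cells and dendritic cells. In such sums, fewer cells of a high sub-type and less RNA per cell cannot be told apart.

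The fall of Ucp2 in macrophages differed from the change in lymphocytes when the difference itself was tested. Macrophages minus alpha-beta T cells gave a log2 difference of -1.30 ± 0.10 (edgeR interaction term, adjusted p = 1.08e-10). Macrophages minus B cells gave -1.38 ± 0.12 (adjusted p = 8.30e-05). ILC2 minus alpha-beta T cells gave -0.06 ± 0.11 (adjusted p = 0.981).

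Cpt1a, on chr19:3322334-3385733 (plus strand), fell in B cells and alpha-beta T cells. B cells held 20.3 and 19.3 CPM at 30C against 7.05 and 8.08 CPM at 4C. Alpha-beta T cells held 40.4 and 39.0 CPM at 30C against 19.6 and 19.1 CPM at 4C. In both types the libraries of a temperature lay close together and both 4C libraries were below both 30C libraries. The log2 fold change was -1.47 ± 0.11 in B cells (2.77-fold lower, edgeR adjusted p = 0.00284) and -1.10 ± 0.08 in alpha-beta T cells (adjusted p = 0.000231). The call in alpha-beta T cells was at the edge without 4C replicate 1 (-1.13, adjusted p = 0.0509). The 13 mitochondrially encoded genes, a sign of cell and RNA quality, were lower at 4C in the same sums, at 56648 and 53388 CPM against 51387 and 51614 CPM in B cells and at 41076 and 40715 CPM against 36485 and 38378 CPM in alpha-beta T cells. Their part in this and the other differences of these types was not tested.

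Both 4C libraries were below both 30C libraries for Cpt1a in each of the 3 B cell and 5 alpha-beta T cell sub-types. It was 21.1 and 17.9 CPM against 6.29 and 7.05 CPM in Ighd-positive B cells, and 42.3 and 39.8 CPM against 19.7 and 16.5 CPM in Foxp3-positive T cells, the regulatory cells. Germinal centre B cells showed the smallest gap among B cells, with 18.4 and 21.9 CPM at 30C against 12.6 and 14.0 CPM at 4C.

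Plasma cells, not tested, held 11.2 and 12.4 CPM of Cpt1a at 30C against 2.65 and 3.89 CPM at 4C, from 52, 52, 9 and 17 UMIs, a 3.61-fold lower mean at 4C with no overlap. Gamma-delta T cells held 43.6 and 32.4 CPM at 30C against 19.5 and 16.4 CPM at 4C, with a log2 fold change of -1.09 ± 0.29 and an adjusted p of 0.0565. ILC2 held 39.1 and 32.7 CPM at 30C against 23.3 and 16.6 CPM at 4C (-0.85 ± 0.30, adjusted p = 0.253). The 4C libraries were below the 30C libraries in both, and neither passed the threshold. Dendritic cells, with 18 UMIs at 30C and 19 at 4C, overlapped, at 13.6 and 11.7 CPM against 12.5 and 2.60 CPM.

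Macrophages had the highest Cpt1a of all types at both temperatures. They held 89.5 and 93.3 CPM at 30C against 74.9 and 87.1 CPM at 4C, with a log2 fold change of -0.24 ± 0.13 and an adjusted p of 0.260. Set against lymphocytes, the change in macrophages was higher by 0.87 ± 0.17 than in alpha-beta T cells (edgeR interaction term, adjusted p = 0.000913) and by 1.29 ± 0.18 than in B cells (adjusted p = 0.00218). Cpt1a and Ucp2 were thus the members called in both of these interaction tests, with opposite signs. That makes 2 of 10 members in each, beside 7.15% of all genes tested against alpha-beta T cells and 3.8% against B cells. No member of the 9 tested was called for ILC2 against alpha-beta T cells, where 0.826% of genes were called.

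Slc25a20, on chr9:108662088-108684641 (plus strand), moved as Cpt1a did in B and alpha-beta T cells. In B cells it was 20.3 and 17.0 CPM at 30C against 10.3 and 10.2 CPM at 4C, and in alpha-beta T cells 27.8 and 26.9 CPM at 30C against 18.7 and 16.7 CPM at 4C. The temperatures did not overlap in either type. The log2 fold changes were -0.95 ± 0.12 (edgeR adjusted p = 0.0178) and -0.68 ± 0.10 (adjusted p = 0.00796). Leaving out a library ended the call in B cells without 4C replicate 1 (-0.97, adjusted p = 0.120) and without 4C replicate 2 (-0.94, adjusted p = 0.159). In alpha-beta T cells it ended without 30C replicate 1 (-0.66, adjusted p = 0.0701), 4C replicate 1 (-0.78, adjusted p = 0.0739) and 4C replicate 2 (-0.59, adjusted p = 0.112), and with no filter on low counts (-0.67, adjusted p = 0.0544).

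Gamma-delta T cells held 26.6 and 33.8 CPM of Slc25a20 at 30C and 20.4 and 11.7 CPM at 4C (-0.83 ± 0.31, adjusted p = 0.168). Dendritic cells held 23.5 and 23.4 CPM against 9.37 and 19.1 CPM (-0.77 ± 0.41, adjusted p = 0.425). The 4C values were the lower ones in both, on few UMIs. Macrophages, at 19.4 and 26.0 CPM against 16.3 and 33.2 CPM, and ILC2, at 17.7 and 10.9 CPM against 16.0 and 10.6 CPM, overlapped. Across 65 sums of a library and a type or sub-type, the log2 levels of Cpt1a and Slc25a20 had a Pearson r of 0.532, a description over sums that share libraries.

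**Figure D2:**
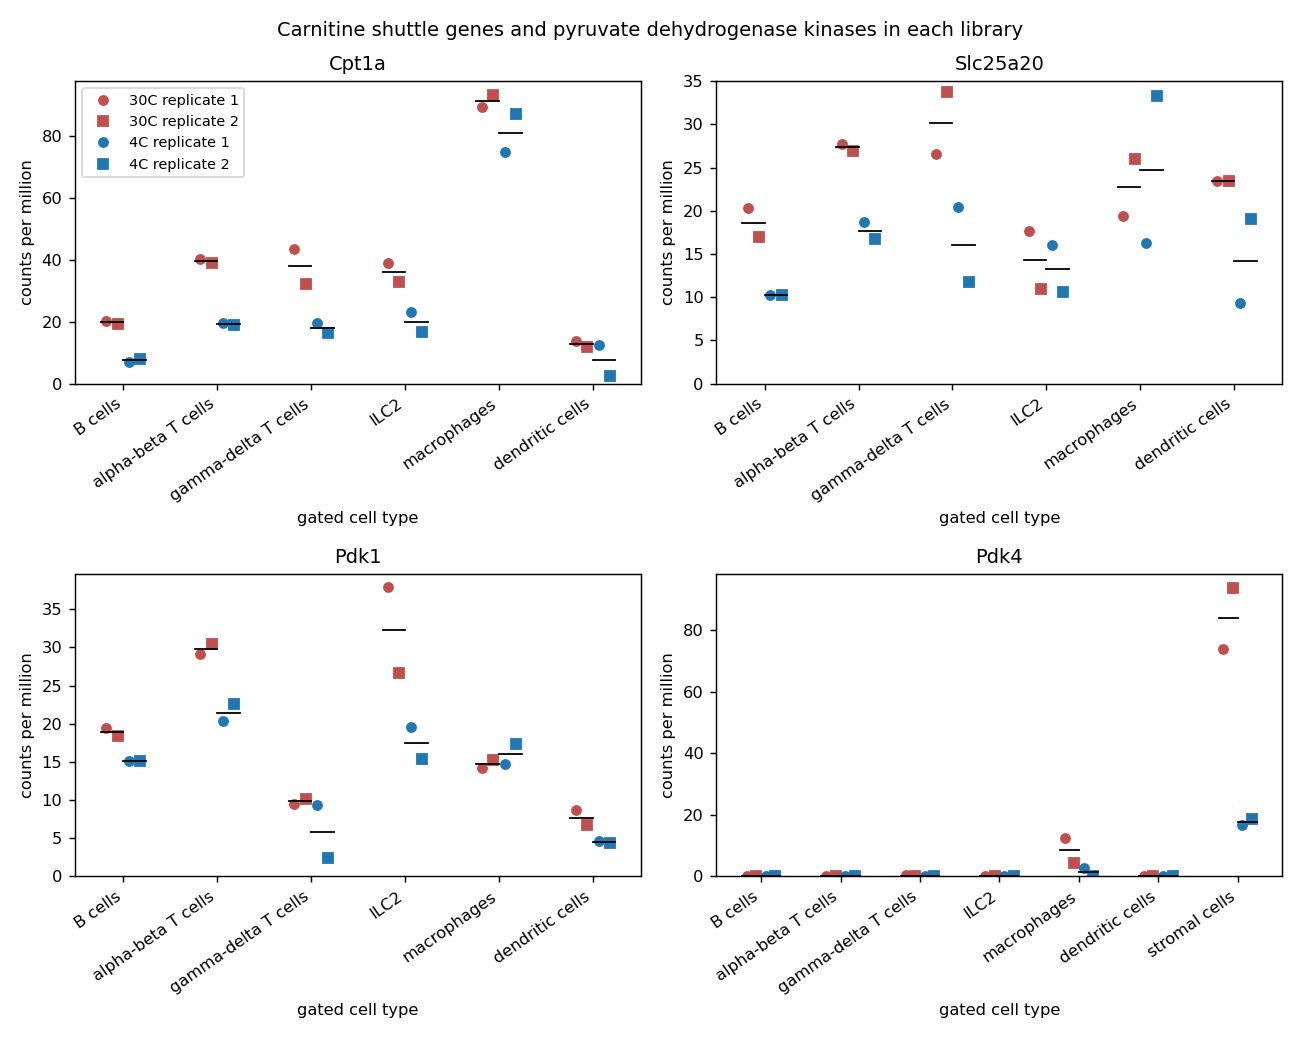
Level in CPM of the carnitine shuttle genes Cpt1a and Slc25a20 and of the kinases Pdk1 and Pdk4 in each library by gated cell type, with red points for 30C, blue points for 4C and black bars for the mean of the 2 libraries at each temperature. Cpt1a drops from about 40 to about 20 CPM in alpha-beta T cells while it stays between 74.9 and 93.3 CPM in macrophages. Among the types drawn, Pdk4 is near 0 outside stromal cells and macrophages.

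The enzymes of the matrix moved little. Among Acadvl, Acadl, Acadm, Hadha and Hadhb, the threshold was passed once, by Acadl in macrophages. Acadl (chr1:66830839-66863277, minus strand, with the processed pseudogene Gm15793 on the same strand inside its span) was 74.7 and 65.6 CPM at 30C against 51.2 and 51.9 CPM at 4C in macrophages. These libraries did not overlap, the log2 fold change was -0.49 ± 0.14 and the edgeR adjusted p was 0.0376. The call was lost in 9 of the 14 other settings, among them DESeq2 (adjusted p = 0.386) and the fits without 30C replicate 1 (-0.41, adjusted p = 0.170), 4C replicate 1 (-0.46, adjusted p = 0.158) and 4C replicate 2 (-0.49, adjusted p = 0.0584).

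Acadl was also below its 30C libraries at 4C in B cells, alpha-beta T cells, gamma-delta T cells and ILC2, with no overlap and no call. Such splits are easily reached with 2 libraries per temperature, and their share over all genes was not counted. Without cycling cells the gamma-delta value turned from -0.37 to 0.30. In B cells, for example, Acadl was 74.4 and 78.6 CPM against 67.4 and 67.2 CPM (-0.27 ± 0.06, adjusted p = 0.0918). Acadm, on chr3:153922357-153944632 (minus strand), had its 4C libraries above the 30C libraries in B, alpha-beta T and gamma-delta T cells and overlapped in ILC2, macrophages and dendritic cells. Stromal cells, not tested, held 47.1 and 29.3 CPM of Acadm at 30C against 69.2 and 84.2 CPM at 4C, from 7, 5, 29 and 18 UMIs. In gamma-delta T cells it was 34.9 and 30.9 CPM against 39.0 and 46.9 CPM (0.28 ± 0.23, adjusted p = 0.570). Over the 6 types the log2 fold change of Acadm ran from -0.26 to 0.37, with no adjusted p under 0.428.

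Acadvl (chr11:70010183-70015411, minus strand, overlapping Dvl2 and Mir324 on the other strand) was higher in alpha-beta T cells than in B cells. It was 42.8 and 38.6 CPM at 30C against 33.8 and 36.5 CPM at 4C in alpha-beta T cells, and 13.1 and 13.4 CPM at 30C against 15.6 and 14.6 CPM at 4C in B cells. The 4C libraries were thus below the 30C libraries in one type and above them in the other, by small amounts and with neither called (-0.28 ± 0.08, adjusted p = 0.102, and 0.09 ± 0.09, adjusted p = 0.660).

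Hadha (minus strand) and Hadhb (plus strand) lie head to head on chromosome 5, their annotated starts 86 bases apart at positions 30155162 and 30155248, and the stretch between them is the one printed in the sequences. Hadha overlaps Garem2 on the other strand and Hadhb holds Mir1960 on its own strand. In alpha-beta T cells Hadha was 73.3 and 75.3 CPM at 30C against 86.4 and 85.9 CPM at 4C, and Hadhb was 93.9 and 93.3 CPM at 30C against 87.7 and 83.7 CPM at 4C. Both genes kept the temperatures apart there, in opposite directions, by 0.15 ± 0.06 (adjusted p = 0.208) and -0.19 ± 0.07 (adjusted p = 0.140). In macrophages the values of Hadha overlapped, at 75.8 and 68.3 CPM against 72.1 and 78.5 CPM (0.01 ± 0.13). Hadhb had its 4C libraries below the 30C libraries in 5 of the 6 types and overlapped in ILC2. Hadha was below in 1 type, above in 1 and overlapped in 4. Such splits are easily reached, and their share over all genes was not counted. Neither gene was called in any type, and their log2 fold changes over the 6 types ran from -0.55 to 0.19 for Hadha and from -0.43 to 0.24 for Hadhb.

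**Figure D3:**
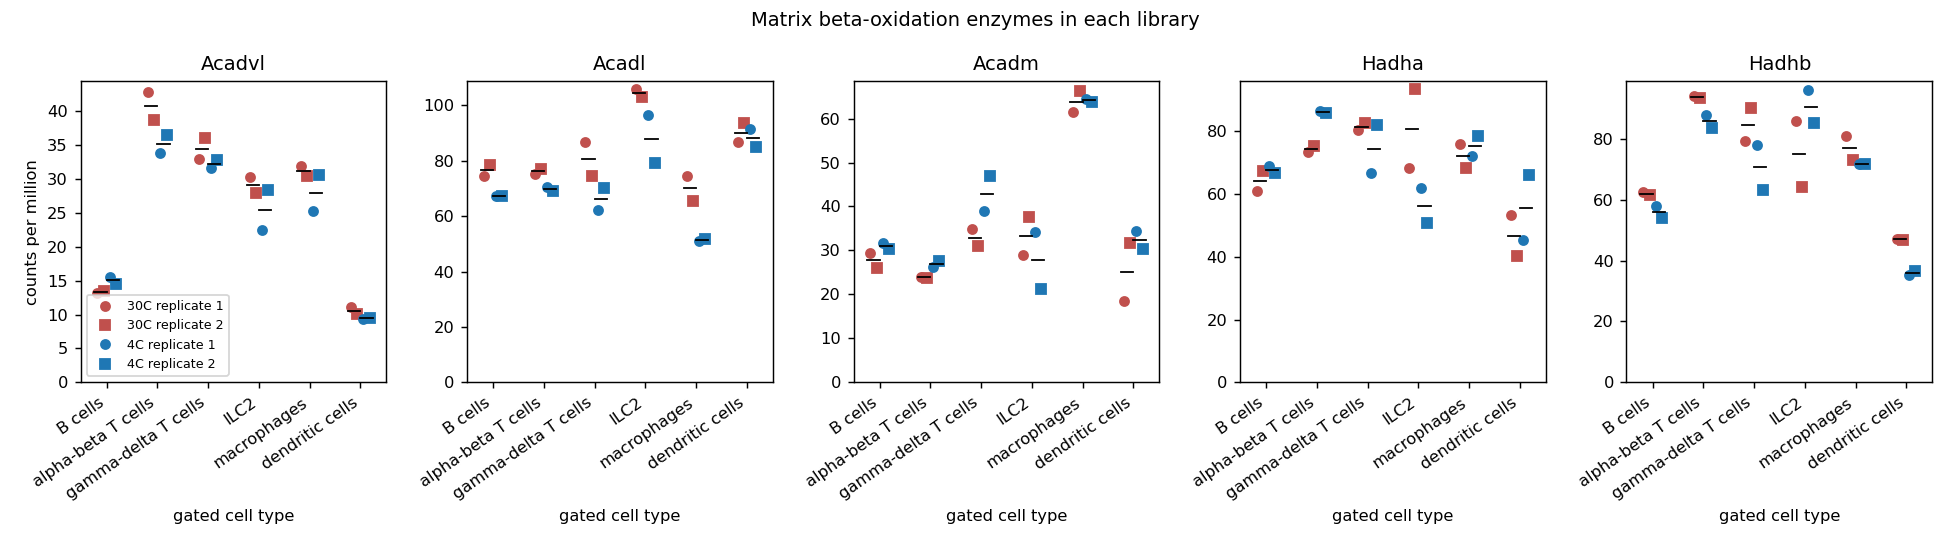
Level in CPM of the matrix enzymes Acadvl, Acadl, Acadm, Hadha and Hadhb in each library by gated cell type, each panel on its own axis from 0, with red points for 30C, blue points for 4C and black bars for the mean of the 2 libraries at each temperature. Red and blue points of a type mostly lie close together, and Acadl in macrophages (74.7 and 65.6 against 51.2 and 51.9 CPM) is the difference that passed the threshold.

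Pdk1, on chr2:71873224-71903858 (plus strand), fell in alpha-beta T cells. It was 29.1 and 30.5 CPM at 30C against 20.3 and 22.6 CPM at 4C, without overlap, with a log2 fold change of -0.54 ± 0.09 and an edgeR adjusted p of 0.0128. The call was lost on leaving out any of the 4 libraries, with adjusted p of 0.0792 without 30C replicate 1, 0.0872 without 30C replicate 2, 0.113 without 4C replicate 1 and 0.109 without 4C replicate 2, at log2 fold changes from -0.60 to -0.47, and also with no filter on low counts (-0.52, adjusted p = 0.0688). B cells held 19.4 and 18.4 CPM at 30C and 15.1 CPM in each 4C library (-0.41 ± 0.09, adjusted p = 0.0748). ILC2 held 37.9 and 26.7 CPM at 30C against 19.6 and 15.4 CPM at 4C (-0.89 ± 0.32, adjusted p = 0.261). The 4C libraries were the lower ones in both types. Macrophages overlapped, with 14.3 and 15.2 CPM against 14.8 and 17.3 CPM, gamma-delta T cells had 52 Pdk1 UMIs at 30C and 11 at 4C, and in dendritic cells Pdk1 and Acadvl were too low to be tested.

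Pdk4, on chr6:5483351-5496309 (minus strand), was nearly absent from lymphocytes and too low to be tested in any of the 6 types. B cells gave 4 UMIs at 30C and 1 at 4C over all their cells, alpha-beta T cells 2 and 1, gamma-delta T cells 1 and 0, and ILC2 and dendritic cells none at either temperature. Macrophages gave 22 and 8 UMIs at 30C (12.5 and 4.34 CPM) and 11 and 0 UMIs at 4C (2.80 and 0 CPM). Their 4C libraries were below both 30C libraries, on these few UMIs. Stromal cells had the highest level, 74.0 and 93.7 CPM at 30C from 11 and 16 UMIs and 16.7 and 18.7 CPM at 4C from 7 and 4 UMIs. All stromal values at 4C lay under those at 30C, but each rests on 24 to 39 cells and no test was made. Lymphatic endothelial cells held 16.0 and 9.08 CPM at 30C from 7 and 2 UMIs, with too few cells at 4C for a value. Over all cells kept, Pdk4 gave 79 and 53 UMIs at 30C and 25 and 8 at 4C.

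Counted by cell type, the called members were 2 of the 9 tested in B cells (Cpt1a and Slc25a20), where 2.51% of 11855 genes were called. There were 3 of 9 in alpha-beta T cells (Cpt1a, Slc25a20 and Pdk1; 4.83% of 11815 genes), 2 of 9 in macrophages (Ucp2 and Acadl; 15.9% of 9374 genes) and 1 of 7 in dendritic cells (Ucp2; 1.86% of 6810 genes). None of the 9 members tested was called in gamma-delta T cells (4.28% of 8687 genes) or in ILC2 (1.39% of 6845 genes). All 8 calls among the 52 pairs of a member and a type that could be tested were lower at 4C. Since the members were chosen on these differences, nothing is read from the shares. The median log2 fold change of the members tested was -0.24 in B cells, -0.19 in alpha-beta T cells, -0.28 in gamma-delta T cells, -0.27 in ILC2, -0.15 in macrophages and -0.43 in dendritic cells, beside a median between -0.01 and 0.01 over all genes tested in each type.

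**Figure D4:**
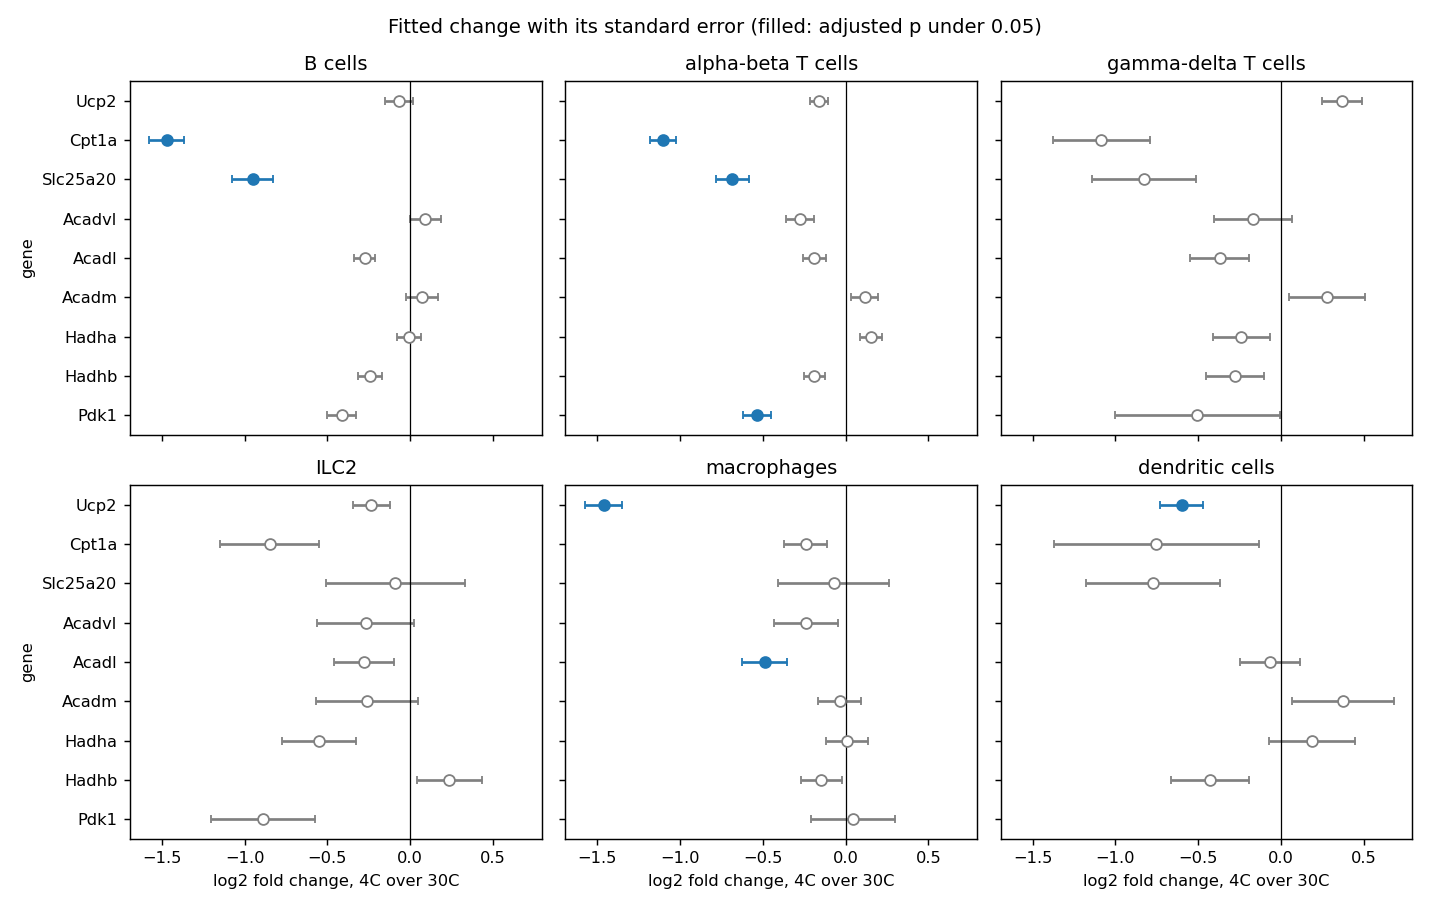
Fitted log2 fold change of 4C over 30C (points) with its standard error (bars) for 9 of the 10 genes in each tested cell type, n = 2 libraries per temperature; filled blue points have an edgeR adjusted p under 0.05 and open grey points do not, and a missing point could not be tested. Ucp2 (-1.46) is far to the left in macrophages while Cpt1a (-1.47 and -1.10) and Slc25a20 are in B and alpha-beta T cells.

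The other genes of the pathway were counted beside the shares of all genes called, which were 2.51% in B cells and 4.83% in alpha-beta T cells. Of 20 further genes of mitochondrial beta-oxidation, 18 were tested in B cells and 1 was called, Acaa2, the thiolase of the last step, at 36.4 and 39.5 CPM at 30C against 27.0 and 26.5 CPM at 4C (-0.59 ± 0.08, adjusted p = 0.0178). Of the 18 tested in alpha-beta T cells, Hadh, the short-chain dehydrogenase, was lower at 4C (71.2 and 68.2 against 57.9 and 53.1 CPM, adjusted p = 0.0314) and the isomerase Eci1 was higher (33.4 and 34.4 against 45.5 and 45.1 CPM, adjusted p = 0.0331). None was called among 15 tested in macrophages, 14 in gamma-delta T cells, 11 in ILC2 or 13 in dendritic cells. The 12 genes of the pyruvate dehydrogenase complex, its other kinases, phosphatases and the pyruvate carrier were all tested in B cells, alpha-beta T cells and macrophages and 7 to 10 of them in the other types, with none called, and none of the other uncoupling proteins and adenine nucleotide carriers passed in any type.

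Among 11 acyl-CoA synthetases and thioesterases and 10 peroxisomal genes, Acsf2, Pex11a, Acot9 and Acsl3 were called. In macrophages 1 of 10 tested and 1 of 9 tested were called in the 2 lists, beside 15.9% of all genes. In B cells it was 1 of 10 and 1 of 9, beside 2.51% of all genes. In alpha-beta T cells it was 2 of 10 and 0 of 9, beside 4.83%. Acsf2, an acyl-CoA synthetase, was 34.2 and 35.8 CPM in macrophages at 30C and 6.88 and 9.31 CPM at 4C (-2.23 ± 0.24, adjusted p = 0.000233), and it was lower in alpha-beta T cells too (-0.65 ± 0.15, adjusted p = 0.0438). Pex11a, a peroxisome proliferation factor, was 27.9 and 25.5 CPM in macrophages at 30C and 4.33 and 7.98 CPM at 4C (-2.32 ± 0.31, adjusted p = 0.000827). In B cells Pex11a was 4.06 and 3.72 CPM against 0.418 and 0.284 CPM (-3.57 ± 0.30, adjusted p = 0.00426). Acot9, at 72.1 and 67.5 against 55.4 and 54.9 CPM, was also lower in alpha-beta T cells (-0.40 ± 0.07, adjusted p = 0.0221), and Acsl3, at 3.13 and 3.94 against 7.41 and 7.02 CPM, was the gene of this list that was higher in B cells (0.94 ± 0.16, adjusted p = 0.0437). No other gene of these lists was called in the 6 types.

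Of 6 known PPAR targets outside the pathway, 5 were tested in macrophages, where 15.9% of all genes were called, and 4 were lower at 4C, with none higher and 1 not called. Hilpda, an inhibitor of lipolysis on lipid droplets, was 34.8 and 32.0 CPM at 30C against 6.62 and 9.31 CPM at 4C (-2.19 ± 0.25, adjusted p = 0.000312). Plin2, a lipid droplet coat protein, was 733 and 617 CPM against 298 and 392 CPM (-1.02 ± 0.14, adjusted p = 0.000871). The lipase inhibitor Angptl4 was 50.7 and 46.1 CPM against 20.4 and 31.9 CPM (-1.03 ± 0.22, adjusted p = 0.0111), and the fatty acid binding protein Fabp4 was 1129 and 213 CPM against 115 and 107 CPM (-2.62 ± 0.57, adjusted p = 0.0124). Fabp4, named after its values were seen, stood far higher in 30C replicate 1 than in the other 3 libraries. Fabp4 is also abundant in adipocytes, whose summed markers were the ones given beside Ucp2, and their part in these differences was not tested. Hilpda was the gene of this list called in ILC2 (122 and 77.6 against 49.4 and 43.8 CPM, adjusted p = 0.0308), and none was called in B cells, alpha-beta T cells, gamma-delta T cells or dendritic cells.

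Of the 17 regulators, 12 were tested in macrophages, where 15.9% of all genes were called, and 2 were called. Hif1a (143 and 136 against 104 and 104 CPM, -0.46 ± 0.11, adjusted p = 0.0157) and Foxo3 (61.6 and 48.8 against 38.2 and 34.6 CPM, -0.62 ± 0.17, adjusted p = 0.0321) were lower there at 4C. None was called among 13 tested in B cells and in alpha-beta T cells, 10 in gamma-delta T cells, 9 in ILC2 and 7 in dendritic cells. The fixed list of 8 HIF targets beside Pdk1 gave no call in any type, among 7 tested in B cells, 8 in alpha-beta T cells, 6 in gamma-delta T cells and in ILC2, 5 in macrophages and 4 in dendritic cells. This holds for that list alone, and Hilpda and Angptl4 were counted with the PPAR targets only. Which factor acts on a gene was not tested. In the interaction fits, Hilpda, Fabp4, Plin2, Angptl4, Acsf2 and Pex11a differed between macrophages and alpha-beta T cells with a lower change in macrophages (Angptl4 was named after its values were seen), while Hadh (0.79 ± 0.22, adjusted p = 0.0237) and Acsl1 (0.92 ± 0.27, adjusted p = 0.0327) differed the other way. Against B cells, Hilpda, Acsf2 and Plin2 were called.

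The genes whose log2 level was most like that of Ucp2 over the 65 sums, among 10201 genes with a mean of at least 5 CPM, were Laptm5 (Pearson r = 0.915), Fermt3 (0.880) and Rgs2 (0.874). For Cpt1a they were Dhx40 (0.807), Ifngr1 (0.799) and Cndp2 (0.799). For Pdk4 they were Col4a1 (0.914), Sparc (0.891) and Col4a2 (0.888), genes of basement membrane and matrix. These sums share libraries, so the coefficients are descriptions.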

How the data were processed

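The deposited files hold UMI counts per gene and cell barcode, which the authors made with Cell Ranger (3.0.0 in the file headers, 3.1.0 in the submitters' processing notes) on mm10, with no normalization. Genes in fewer than 10 cells were dropped, and cells with at least 200 and at most 5000 genes and at most 7.5% mitochondrial counts were kept. A cell was gated by at least 3 markers of a type and by meeting no other type's gate. Cells meeting several gates (3.56%) or none (8.47%) were set aside, which with the limit of 5000 genes was the treatment of doublets, no caller being run. Counts were summed per library and type, with levels given for at least 20 cells, and the 6 types chosen for testing were tested with edgeR 4.0.16 (R 4.3.3) by glmQLFit and glmQLFTest, TMM scaling and filterByExpr, with p-values adjusted by Benjamini-Hochberg across every gene tested and 0.05 as threshold. Interaction fits had library as a factor. SE was the absolute log2 fold change over the square root of F. CPM was the UMIs of a gene relative to all UMIs of the sum. The replicates were pools of mice. Levels by cell type are descriptions because other genes of the same cells set the gates. Scripts were tested on simulated data.

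The members and the lists were chosen with earlier results of these data known. All members were named, but their values were not given for every tested type. Also named were up to 3 genes with the smallest adjusted p from each of the 8 lists (91 genes). For Ucp2, Cpt1a and Pdk4 the 3 most similar genes were named. Alternatives were RLE scaling, DESeq2 1.42.0, no filter on low counts, a 15% mitochondrial limit, no upper gene limit, stricter and looser gates, no cycling cells, sub-types, a replicate block and each library left out. The stricter gate asked for at least 4 markers of a type and the looser gate for at least 2. Both also barred cells with more than 1 marker of another type, so for most types the looser gate was not a wider one. In 30C replicate 1 it kept 1620 B cells and 112 macrophages against 2256 and 168 in the main gate, but 154 ILC2 against 89. Gene positions are from GENCODE M21 and promoters from RefSeq, both of the build of the files.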

Additional observations from a re-analysis of the deposited data

Results flagged for a closer look

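The change with temperature differed between cell types in 4 tests of the difference itself. For Ucp2 the log2 difference was -1.30 between macrophages and alpha-beta T cells and -1.38 between macrophages and B cells, the change in macrophages being the lower one. For Cpt1a it was 0.87 and 1.29 against the same 2 types, the change in macrophages being the higher one.

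In other pairs of types every 4C library was above both 30C libraries in one type and below them in the other, and the difference was not tested. With 2 libraries per temperature such a split is easily reached, and the share of all genes that show it was not counted. For Ucp2 this held for gamma-delta T cells, with a log2 ratio of mean CPM that was higher by 0.52 than in alpha-beta T cells, by 0.61 than in ILC2, by 1.84 than in macrophages and by 0.99 than in dendritic cells. For Acadvl it held for B cells, with a ratio higher by 0.39 than in alpha-beta T cells, by 0.28 than in gamma-delta T cells and by 0.34 than in dendritic cells. The fitted Acadvl changes were small beside their errors in B cells (0.09 ± 0.09, edgeR adjusted p = 0.660) and gamma-delta T cells (-0.17 ± 0.24, adjusted p = 0.770). The gamma-delta value of Ucp2 in 4C replicate 2 rests on 37 cells, and without cycling cells the fitted change in gamma-delta T cells went from 0.37 to -0.06.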

How the results depend on the processing

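The 12 called values of the members had 140 values under other settings, of which 0 changed sign and 26 missed the threshold, all for Slc25a20, Pdk1, Acadl, Ucp2 in dendritic cells or Cpt1a in alpha-beta T cells. Ucp2 in macrophages (-1.81 to -1.29) and Cpt1a in B cells (-1.67 to -1.39) passed in all 14 settings. With 2 pools per temperature, counts of calls moved far with the setting. The cause of the moves was not tested.

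Genes called in B cells (298) were 1039 with no filter on low counts, 510 with the 15% mitochondrial limit, 160 with no upper gene limit, 1271 and 1181 with the stricter and looser gate, 1544 without cycling cells, 1778 without germinal centre cells, and 40 to 1515 leaving out a library (lowest without 4C replicate 2, highest without 30C replicate 2). Members called there (2) were 4 with no filter and with either gate, 5 without cycling or germinal centre cells, and 1 to 5 leaving out a library. In alpha-beta T cells 571 genes and 3 members became 110 and 1 with no filter, and 30 to 198 genes and 0 to 2 members leaving out a library (lowest without 4C replicate 1). In gamma-delta T cells 372 genes became 107 with DESeq2, 754 with no filter, 0 with no upper gene limit, 167 and 168 with the stricter and looser gate and 255 to 943 leaving out a library (highest without 4C replicate 2). Members called there (0) were 1 with no filter and without cycling cells, and 0 to 2 leaving out a library. In ILC2 95 genes became 56 with DESeq2, 230 with no filter, 150 with the 15% limit, 290 with no upper gene limit, 5 and 154 with the stricter and looser gate, 353 without cycling cells and 0 to 165 leaving out a library (0 without either 4C library), and 1 member was called with the looser gate and without cycling cells. In macrophages 1489 genes became 728 with DESeq2, and the 2 members became 1 with DESeq2, no upper gene limit, either gate, no cycling cells or Mrc1- and Folr2-positive cells alone, and 1 to 3 leaving out a library. In dendritic cells 127 genes became 76 with DESeq2, 337 with no filter and 119 to 279 leaving out a library, and the 1 member became 0 with either gate or without cycling cells, and 0 to 1 leaving out a library. Between types, genes called were 524 to 861 (892) against alpha-beta T cells leaving out a library, 865 with no filter and 401 to 830 leaving out a library (476) against B cells, and for ILC2 (94) 5 with the stricter gate and 53 to 149 leaving out a library, where members called were 0 to 1.

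Whether replicate numbers pair the libraries cannot be told from 2 pairs with no label that they share a day. For each gene, the deviation of a library from the mean of its temperature was taken. Across genes, these deviations in same-numbered libraries of the 2 temperatures had a correlation from -0.0988 in ILC2 to 0.213 in B cells. These values describe the deviations and not the likeness of whole libraries. With the replicate block, genes called were 855 in B cells, 1739 in alpha-beta T cells, 0 in ILC2 and 300 in dendritic cells, and members called were 5 in alpha-beta T cells and 1 in gamma-delta T cells.

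Log2 fold changes that took the other sign in some setting had not passed the threshold in either fit, and numbered 26 results. In B cells, Ucp2 -0.067 became -0.15 to 0.0057 (leaving out a library), Acadm 0.071 became -0.026 (stricter gate), -0.028 (looser gate), -0.058 to 0.17 (leaving out a library) and Hadha -0.0098 became 0.0034 (no cycling cells), 0.012 (no germinal centre cells), -0.067 to 0.025 (leaving out a library). In gamma-delta T cells, Ucp2 0.37 became -0.056 (no cycling cells), Pdk1 -0.51 became 0.49 (no upper gene limit) and Acadl -0.37 became 0.30 (no cycling cells). In ILC2, Ucp2 -0.23 became 0.11 (stricter gate), Slc25a20 -0.089 became -0.46 to 0.27 (leaving out a library) and Hadhb 0.24 became -0.18 (looser gate). In macrophages, Pdk1 0.045 became -0.19 (stricter gate), -0.11 (looser gate), -0.037 (no cycling cells), -0.082 (Mrc1- and Folr2-positive cells alone), -0.037 to 0.20 (leaving out a library), Slc25a20 -0.072 became 0.039 (DESeq2), 0.0061 (looser gate), 0.024 (replicate block), -0.52 to 0.51 (leaving out a library), Acadm -0.035 became 0.00074 (stricter gate), -0.10 to 0.032 (leaving out a library) and Hadha 0.0083 became -0.057 (15% limit), -0.053 (Mrc1- and Folr2-positive cells alone), -0.051 to 0.094 (leaving out a library). In dendritic cells, Acadm 0.37 became -0.017 to 0.76 (leaving out a library) and Hadha 0.19 became -0.17 (stricter gate), -0.037 (looser gate), -0.11 to 0.48 (leaving out a library). In macrophages against alpha-beta T cells, Pdk4 -1.47 became -8.73 to 1.03 (leaving out a library), Acadvl 0.055 became -0.11 (stricter gate), -0.0031 to 0.16 (leaving out a library) and Hadhb 0.045 became -0.0051 to 0.10 (leaving out a library). In macrophages against B cells, Acadm -0.087 became 0.022 (stricter gate), -0.26 to 0.11 (leaving out a library) and Hadha 0.047 became -0.013 (15% limit), -0.049 to 0.15 (leaving out a library). In ILC2 against alpha-beta T cells, Ucp2 -0.063 became 0.32 (stricter gate), -0.14 to 0.0401 (leaving out a library), Cpt1a 0.25 became -0.0061 (stricter gate), -0.018 to 0.43 (leaving out a library), Pdk1 -0.34 became 0.056 (stricter gate), Slc25a20 0.59 became -0.21 (stricter gate), Acadl -0.086 became -0.22 to 0.025 (leaving out a library) and Acadvl 0.02 became -0.27 (stricter gate), -0.071 to 0.16 (leaving out a library).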
